A study of Mus musculus with 4 samples.

Results

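Excitatory nuclei with transcripts of *Tle4* and *Hs3st4*, a combination that marks corticothalamic neurons of cortical layer 6, were examined in single-nucleus RNA sequencing data from the medial neocortex of mouse embryos at stage E16.5. A nucleus was counted as a *Tle4*+/*Hs3st4*+ nucleus when it held at least 3 transcripts of *Tle4* and at least 5 of *Hs3st4*, no transcript of *Gad1*, *Gad2*, *Eomes* or *Nxph4*, and at most 1 transcript of *Mki67* and *Top2a* together. The excluded genes mark GABAergic interneurons, intermediate progenitors, subplate neurons and dividing cells. In all, 3442 of 29656 retained nuclei met these criteria, and a nucleus was retained when its barcode held 1500 to 60000 transcripts. The counts of these genes chose the nuclei, so their levels describe the choice and are not findings.

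The Dnmt1 KO animals were of the genotype *Sst-Cre/tdTomato/Dnmt1 loxP2* and the controls of the genotype *Sst-Cre/tdTomato*. All animals thus carried *Sst-Cre* and the tdTomato reporter, and Cre deletes the floxed *Dnmt1* alleles in postmitotic cells that express somatostatin (*Sst*). Excitatory neurons do not belong to this lineage, so the *Tle4*+/*Hs3st4*+ nuclei were those of cells around the targeted interneurons. The question put to them was whether excitatory neurons differ between genotypes when *Dnmt1*, which encodes a DNA methyltransferase, is deleted in interneurons that express *Sst*. Each genotype had 2 libraries, each from a separate brain.

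Corticothalamic neurons lie mainly in layer 6, the deepest layer of the neocortex, and send their axons to the thalamus. They are among the early-born excitatory neurons, and their identity is set by transcription factors such as TBR1, SOX5 and FOXP2. BCL11B and FEZF2 direct the neighbouring layer 5 neurons towards subcerebral targets.

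The libraries differed in depth. Where values of all 4 libraries are listed, those of both Dnmt1 KO replicates come first, followed by both controls, each in the order of their replicate numbers. *Tle4*+/*Hs3st4*+ nuclei held a median of 18790, 17480, 18666 and 29559 transcripts, so that control replicate 2 was the deepest library. This library alone belonged to batch 2, so batch and genotype could not be separated within it. No retained barcode was shared between libraries (0 barcodes). *Xist*, transcribed from the inactive X chromosome, had 942 and 853 CPM (transcripts of a gene scaled to the total of the summed nuclei, the usual depth-scaled count) in both libraries with replicate number 1, but 2.73 and 0.0469 CPM where the number was 2. Y-linked genes were at 143 and 138 CPM in the libraries with number 1 and at 358 and 311 CPM in those with number 2, so they were lower but not absent beside *Xist*. The replicate number therefore coincided with sex as far as *Xist* shows it.

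The gate was passed by 685 of 5640 retained nuclei in Dnmt1 KO replicate 1, 1367 of 12064 in Dnmt1 KO replicate 2, 693 of 7047 in control replicate 1 and 697 of 4905 in control replicate 2. Of the 4607 nuclei that met the criteria on *Tle4* and *Hs3st4*, 445 held transcripts of *Gad1* or *Gad2*, 332 of *Eomes* and 318 of *Nxph4*, and 344 exceeded the limit on cell-cycle genes, with some nuclei counted in several of these groups. The threshold on *Tle4* did not coincide with a gap in the other markers. The 141 nuclei with exactly 3 *Tle4* transcripts had 385 CPM of *Foxp2* and 21.5 CPM of *Htr1f*, and 163 nuclei with 2 transcripts that met all other criteria had 320 and 24.9 CPM. At the threshold on *Hs3st4*, 52 nuclei with 5 transcripts had 467 CPM of *Foxp2* and 35.99 CPM of *Htr1f*, against 338 and 2.73 CPM in 53 nuclei with 4.

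The label was first checked with markers that the gate did not use. *Htr1f* (chromosome 16, 64742111 to 64926217, minus strand, GRCm39), which encodes serotonin receptor 1F, reached 112, 96.8, 107 and 139 CPM in the *Tle4*+/*Hs3st4*+ nuclei of the 4 libraries. In all other retained nuclei it lay between 10.9 and 19.7 CPM, so the ranges did not overlap. In summed counts, fewer cells of a kind and less RNA per cell cannot be told apart. Nuclei were then thinned at random to 5000 transcripts, and shallower ones were left out, which kept 678, 1362, 684 and 681 *Tle4*+/*Hs3st4*+ nuclei. Of these, 20.1% to 26.6% per library held a transcript of *Htr1f*. The shares were 1.47% to 2.68% in *Gad1*/*Gad2* nuclei and 2.64% to 3.76% in the other postmitotic excitatory nuclei, at the same depth.

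*Syt6* (chromosome 3, 103482484 to 103552885, plus strand), which encodes a synaptotagmin, was less even. It reached 187, 51.1, 74.5 and 70.3 CPM, against 21.7, 11.9, 37.1 and 13.7 CPM in all other nuclei. Dnmt1 KO replicate 1 stood above the rest. In thinned nuclei, *Syt6* was detected in 44.8%, 16.2%, 21.9% and 23.1% of *Tle4*+/*Hs3st4*+ nuclei and in 9.09%, 11.1%, 26.2% and 11.7% of *Gad1*/*Gad2* nuclei. In control replicate 1 the share in *Gad1*/*Gad2* nuclei was thus the higher of the pair, and there *Syt6* did not set the *Tle4*+/*Hs3st4*+ nuclei apart from interneurons.

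*Foxp2* (chromosome 6, 14901287 to 15441976, plus strand), a forkhead transcription factor of deep-layer neurons, was present at 686, 1435, 1660 and 1578 CPM. At least 5 transcripts were found in 55.2% and 72.1% of the nuclei of the Dnmt1 KO libraries and in 76.8% and 84.4% of those of the controls, and no transcript in 28.5%, 16.46%, 11.3% and 6.74%, in the same order. Such raw counts depend on depth. In thinned nuclei, *Foxp2* was detected in 62.1%, 76.1%, 79.8% and 86.2% of *Tle4*+/*Hs3st4*+ nuclei. The shares were 59.7%, 37.1%, 47.9% and 44.2% in all other retained nuclei, and 41.8%, 26.6%, 31.7% and 27.9% in the other postmitotic excitatory nuclei. In Dnmt1 KO replicate 1 *Foxp2* thus hardly set the selected nuclei apart from all other retained nuclei. The gate therefore selected nuclei with and without *Foxp2*, in proportions that differed between libraries. For the summed set, *Htr1f* and most identity genes bore out the label of layer 6 corticothalamic neurons. It did not hold for a large part of the nuclei. In the sub-clusters described below, *Htr1f* was at 304, 211, 247 and 264 CPM in clusters 2, 6, 8 and 9. It was at or below 70.3 CPM in all other clusters. Clusters 1, 3 and 4, with 568, 435 and 425 of the 3442 nuclei, had 26.9, 13.5 and 17.7 CPM. These levels were little or no higher than in all other retained nuclei. The set is therefore called by its rule here.

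Of 22 further genes on a list of corticothalamic identity, 20 reached a mean of 20 CPM in *Tle4*+/*Hs3st4*+ nuclei or in all other nuclei. In 17 of the 20 the level was higher in *Tle4*+/*Hs3st4*+ nuclei in 4 of 4 libraries, and in 0 it was lower in 4 of 4. Over all 6328 genes at this level, 18.2% were higher and 68.8% lower in 4 of 4 libraries. The median log2 ratio, computed after adding 5 CPM and averaged over libraries, was 1.52 for the list and -0.27 for all genes. These ratios describe nuclei chosen from the same counts and were not tested.

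The transcription factors of the list behaved unequally. *Sox5* ranged from 6846 to 8890 CPM and *Tbr1* from 131 to 176 CPM over the 4 libraries, with log2 ratios of 1.72 and 1.58 to all other nuclei. *Zfpm2*, which encodes a GATA cofactor, lay between 2056 and 3447 CPM, with a log2 ratio of 1.89. *Nfia* and *Nfib*, which encode nuclear factor I proteins that progenitors also express, had log2 ratios of only 0.31 and 0.35. Of the remaining genes, *Grik3*, a kainate receptor subunit, had a log2 ratio of 2.51 and *Ntsr1*, the neurotensin receptor gene used to label corticothalamic neurons in the adult, of 1.90.

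The genes with the highest ratios outside the gate were led by *Prickle1*, a planar cell polarity gene. It was found at 731, 580, 700 and 586 CPM in *Tle4*+/*Hs3st4*+ nuclei, against 77.4 to 85.7 CPM in all other nuclei, a log2 ratio of 2.91. It was followed by *Necab1*, which encodes a calcium-binding protein, *Htr1f*, and the contactin-associated gene *Cntnap5b*, with log2 ratios of 2.61, 2.59 and 2.55. The levels of these 4 genes did not overlap between *Tle4*+/*Hs3st4*+ and all other nuclei in any library. The next genes included the adhesion genes *Lrrtm3* and *Lrrtm4*, with log2 ratios of 2.28 and 2.11, the presynaptic gene *Rimbp2* with 2.19, and the adenylyl cyclase gene *Adcy1* with 2.33. *Cacna1e*, a voltage-gated calcium channel, had 2.11, the sodium-calcium exchanger gene *Slc8a3* 2.34, and *Rgs6*, a regulator of G-protein signalling, 2.29. *Hs3st5*, a heparan sulfate sulfotransferase gene like *Hs3st4*, had a log2 ratio of 2.34. *Nfe2l3*, *Sybu*, *Caln1*, *B3gat1*, *St3gal1*, *Mdga2* and *Cdh13* completed the 20 genes, with log2 ratios of 1.98 to 2.46.

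The 10 genes with the lowest ratios were genes of interneurons and progenitors. *Erbb4*, the neuregulin receptor of interneurons, was at 16.9 to 32.0 CPM in *Tle4*+/*Hs3st4*+ nuclei, with a log2 ratio of -6.15. *Nxph1*, *Sox6*, *Nrxn3* and *Dlx6os1* had log2 ratios of -5.38, -5.11, -4.72 and -4.76. The Hedgehog effectors *Gli2* and *Gli3* and the genes *Creb5*, *Npas3* and *Prdm16* had log2 ratios of -4.03 to -4.57. The exclusion of nuclei with *Gad1*, *Gad2*, *Eomes* and cell-cycle transcripts bears directly on these genes.

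The levels were then set beside those of other excitatory nuclei (the plot of marker levels by population). A layer 5 gate (at least 3 transcripts of *Bcl11b*, at least 1 of *Fezf2* and at most 1 of *Hs3st4*) gave 1359 nuclei. *Bcl11b* was as high in *Tle4*+/*Hs3st4*+ nuclei (465 to 737 CPM) as in the layer 5 gate, where it helped to choose the nuclei (476 to 688 CPM), with a mean log2 ratio of 0.09. *Fezf2*, also part of that gate, was lower, at 51.4 to 69.2 CPM against 88.7 to 123 CPM. *Ldb2*, a subcerebral projection gene outside both gates, was at 1006 to 1260 CPM in *Tle4*+/*Hs3st4*+ nuclei and at 1195 to 1556 CPM in the layer 5 gate, a mean log2 ratio of -0.33. *Cux2*, an upper-layer transcription factor gene, was at 8.48 to 43.9 CPM against 64.2 to 127 CPM in the layer 5 gate, a mean log2 ratio of -1.69.

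**Figure D1:**
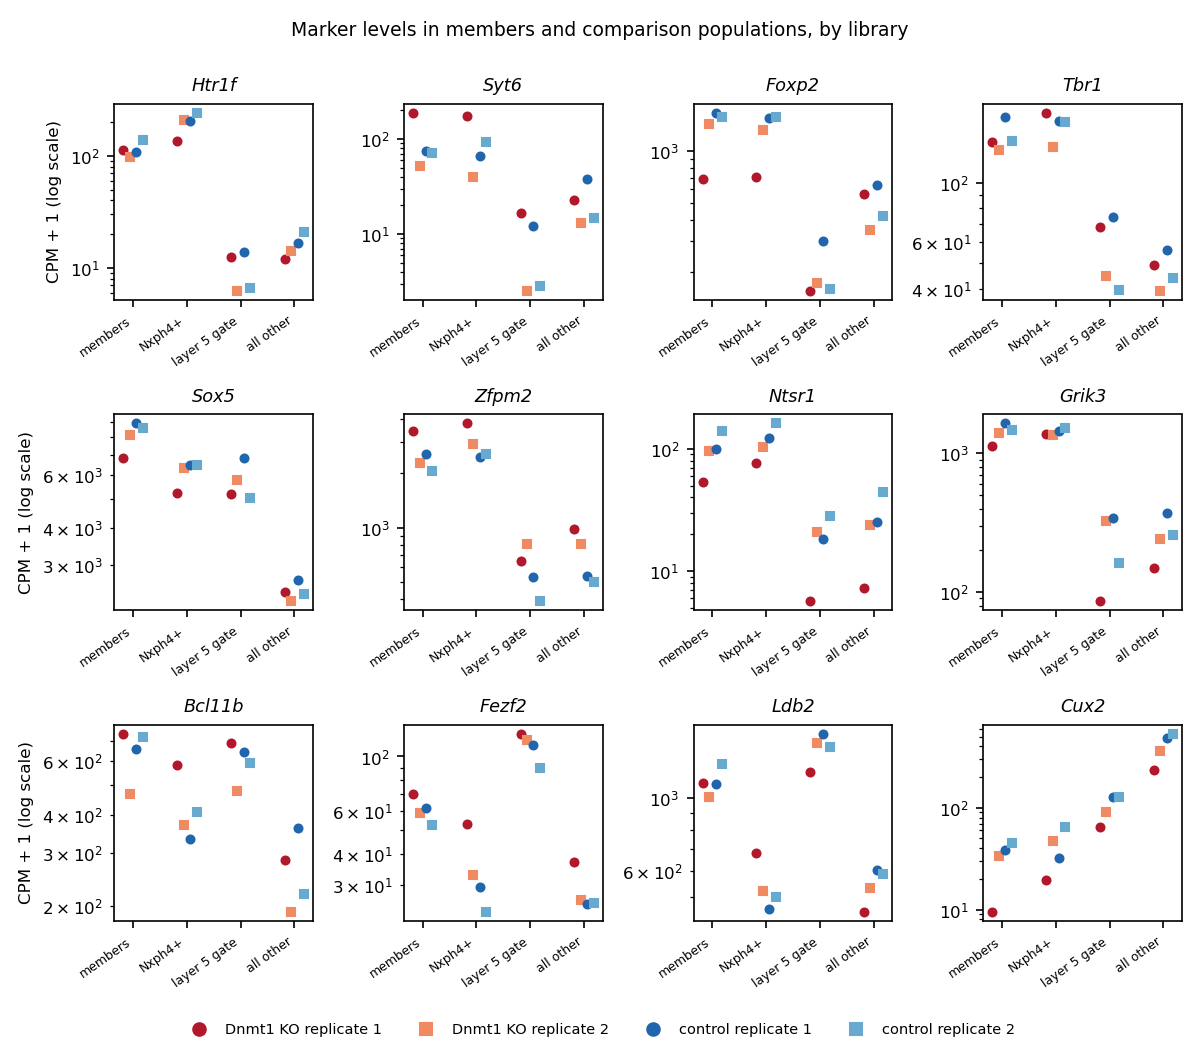
Levels of 12 genes in each library, as CPM + 1 on a logarithmic axis, in *Tle4*+/*Hs3st4*+ nuclei (members), in nuclei that differ from them by at least 1 *Nxph4* transcript, in the layer 5 gate and in all other retained nuclei. Each point is the summed count of a library: *Htr1f* separates members and *Nxph4*+ nuclei from the other populations in all 4 libraries, and the *Foxp2* level of members is lowest in Dnmt1 KO replicate 1, at 686 CPM.

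The exclusion of *Nxph4* removed nuclei that resembled the ones retained. The 244 nuclei that met every other criterion but held at least 1 *Nxph4* transcript had 136 to 241 CPM of *Htr1f* and 704 to 1567 CPM of *Foxp2*, with mean log2 ratios of -0.75 and 0.05 for *Tle4*+/*Hs3st4*+ nuclei relative to them. *Nxph4*, which encodes a neurexophilin, marks subplate and deep layer 6 neurons. The cadherin gene *Cdh18* separated the populations more clearly, with 131 to 293 CPM in *Tle4*+/*Hs3st4*+ nuclei and 448 to 1489 CPM in *Nxph4*+ nuclei.

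Lists of other neuronal programs gave the following counts against all other retained nuclei, to be read beside 18.2% higher and 68.8% lower over all genes. Of 13 upper-layer and callosal genes, 2 were higher and 11 lower in 4 of 4 libraries, with a median log2 ratio of -2.26. Of 8 genes of migrating newborn neurons, 0 were higher and 7 lower (median -1.40), while of 14 neuronal maturation genes 9 were higher and 2 lower (median 0.37). Upper-layer and migration genes were thus mostly lower and maturation genes mostly higher. Layer 5 genes were divided, with 5 of 9 higher and 4 lower (median 0.97), and so were subplate genes, with 3 of 7 higher and 3 lower (median -0.36). Of 20 glutamate receptor and transporter genes, 8 were higher and 5 lower (median -0.07). Of 19 genes on a list of receptors for interneuron signals such as GABA and somatostatin, 9 were higher and 8 lower (median 0.11). Of the listed markers of other cell types, few reached 20 CPM, and 0 of these were higher in 4 of 4 libraries. Lower in 4 of 4 libraries were 5 of 5 interneuron, 2 of 4 striatal, 3 of 4 hippocampal, 3 of 4 Cajal-Retzius, 5 of 6 radial glia and 2 of 2 intermediate progenitor genes and the 1 gene of glia, vessels and immune cells. Below that level, the striatal marker *Drd1*, a dopamine receptor gene, was at 5.21, 5.50, 9.62 and 6.62 CPM against 0.501 to 1.02 CPM in all other nuclei. The summed level of the interneuron list was 26.8 to 49.8 CPM, against 1398 to 3138 CPM in all other nuclei. Other lists were less far apart. The radial glia list summed to 1047 to 1232 CPM against 1661 to 1800 CPM, and the Cajal-Retzius list to 395 to 725 CPM against 554 to 970 CPM, where the ranges overlapped.

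Within the *Tle4*+/*Hs3st4*+ nuclei, transcription factor genes of deep-layer neurons were detected to different degrees. In nuclei thinned to 5000 transcripts, a transcript of *Bcl11b* was found in 88.5%, 78.6%, 87.4% and 89.4% of the nuclei of the 4 libraries. Dnmt1 KO replicate 2 had the lowest share. *Tbr1* was found in 44.99% to 58.2% of thinned nuclei, *Fezf2* in 22.2% to 27.9% and *Sox5* in 96.3% to 98.8%.

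Sub-clustering divided the set into 11 clusters, as a description with no test. The number of clusters was 9 and 17 at lower and higher resolution. Clusters are given by number, in order of size, with their leading genes. A listed gene was counted as raised in a cluster when at least 10% of its nuclei held it and its level was at least 1.5 times that in the other *Tle4*+/*Hs3st4*+ nuclei.

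Clusters 2 and 6 had the most corticothalamic identity genes raised. Cluster 2 (558 nuclei), led by *Tmem132b*, *Pde7b* and *Htr1f*, had 8 of 24 listed genes raised, among them *Ntsr1*, *Foxp2*, *Rprm* and, from the gate, *Hs3st4*. Its *Htr1f* level was 304 CPM and its *Foxp2* level 2485 CPM. Cluster 6 (348 nuclei), led by *Sulf1*, an extracellular sulfatase gene, and the WNT inhibitor gene *Apcdd1*, had 9 raised, 211 CPM of *Htr1f* and 3935 CPM of *Foxp2*. Cluster 8 (224 nuclei), led by *Sdk2*, *Rasgrf1* and *Syt6*, had 5 raised, fewer than clusters 3 and 9, but 247 CPM of *Htr1f* and 321 CPM of *Syt6*. *Htr1f* was also at 264 CPM in cluster 9, and at or below 70.3 CPM in the 7 other clusters.

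Clusters 1, 4 and 5 had 4 or 5 layer 5 genes raised. Cluster 1 (568 nuclei), led by the potassium channel gene *Kcnn2*, *Vav3* and *Tmtc1*, had 5 layer 5 genes raised and 975 CPM of *Bcl11b*, the highest of the clusters. Cluster 4 (425 nuclei) also had 5 raised. It was led by *Nr3c2*, *Trpc5*, *Epha6* and *Rit2*, contained *Slit3* at 2475 CPM, and had only 188 CPM of *Foxp2*. In this cluster 4 corticothalamic genes and 3 of 9 hippocampal genes, *Nr3c2*, *Lef1* and *Zbtb20*, were raised as well. Cluster 5 (363 nuclei), led by the potassium channel gene *Kcnq5*, *Boc* and *Prex2*, had 4 layer 5 and 4 upper-layer genes raised, and 1933 CPM of *Foxp2*.

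Clusters 3 and 9 carried subplate genes beside corticothalamic ones. Cluster 3 (435 nuclei), led by *Etl4*, *Tshz2* and *Nr4a2*, had 6 corticothalamic and 3 subplate genes raised, with 13.5 CPM of *Htr1f* and 209 CPM of *Nr4a2*. Cluster 9 (149 nuclei), led by *Cdh18*, *Col19a1* and *Vwc2*, had 7 of 13 subplate genes and 6 corticothalamic genes raised.

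The remaining clusters were led by genes of other cells. In cluster 7 (262 nuclei), led by *Tafa1*, *Cux2*, *Npas3* and *Unc5d*, 11 of 15 upper-layer genes and 5 radial glia genes were raised and 0 corticothalamic genes. Its nuclei held a median of 31818.5 transcripts, and 68.3% were called doublets by scrublet, against 0.0% to 9.30% in the other clusters. Cluster 10 (67 nuclei), led by *Cdh20* and *Zfp536*, had 6 of 9 hippocampal genes raised, *Zbtb20* and *Prox1* among them. Cluster 11 (43 nuclei) was Cajal-Retzius-like, with 10 of 10 listed markers raised, 26753 CPM of *Reln* and 943 CPM of *Trp73*, and 25.0 CPM of *Foxp2*. Clusters 10 and 11 together held 110 nuclei, 3.20% of the set.

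The clusters were unevenly spread over libraries of the same genotype (the plot of sub-clusters). Cluster 3 held 24.8% of the nuclei of Dnmt1 KO replicate 2 and 13.3% of those of control replicate 1, but 0.574% of those of control replicate 2 and 0 of 685 in Dnmt1 KO replicate 1, which allows a share of up to 0.438%. Cluster 8 held 26.1% and 6.20% of the nuclei of replicate 1 of Dnmt1 KO and control, the libraries with *Xist*, and 1 nucleus in each replicate 2. Sex and library cannot be told apart for this cluster. Cluster 6 held 0.292% of the nuclei of Dnmt1 KO replicate 1 and 10.0% to 16.45% of those of the other libraries, while cluster 4 held 20.3% and 8.66% to 11.2%. Cluster 10 held 6.28% in Dnmt1 KO replicate 1 and 0.717% to 0.951% in the others. Dnmt1 KO replicate 1 thus stood apart in several clusters at once. The libraries were clustered together without correction for library. In these shares, kinds of nuclei and differences in expression between whole libraries therefore cannot be told apart.

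**Figure D2:**
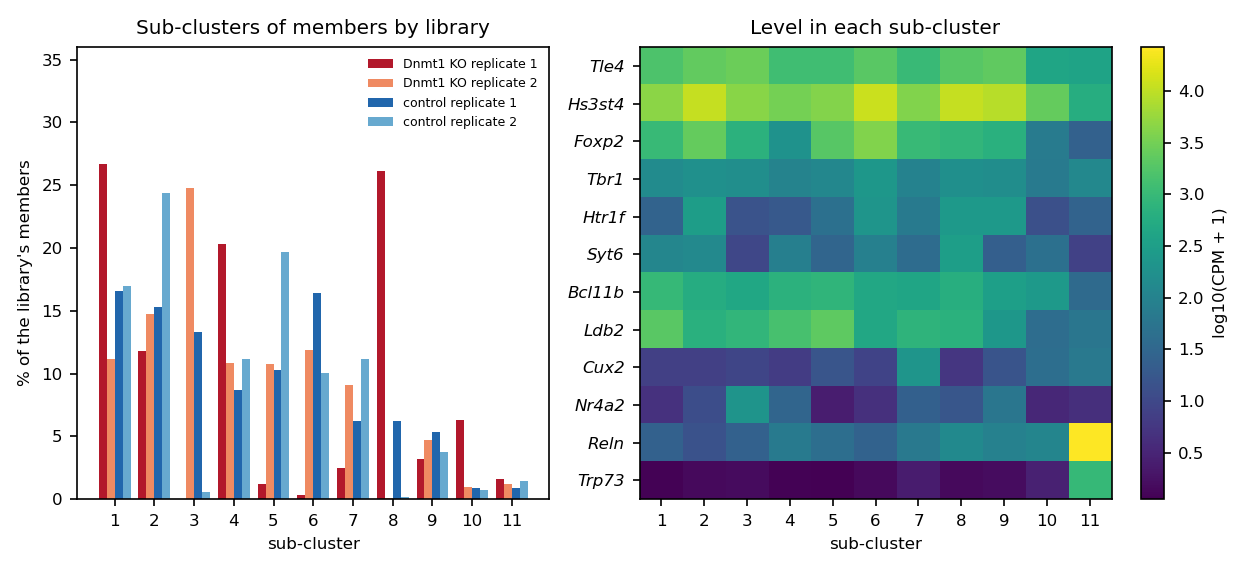
Left, the share of the *Tle4*+/*Hs3st4*+ nuclei of each library that fell into each of 11 sub-clusters, in percent. Right, the level of 12 genes in each sub-cluster over all libraries, as log10 of CPM + 1; clusters 3 and 6 are at 0.0% and 0.292% in Dnmt1 KO replicate 1, cluster 8 is at 26.1% there, *Foxp2* is lowest in clusters 4, 10 and 11, and *Reln* and *Trp73* mark cluster 11.

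The share of *Tle4*+/*Hs3st4*+ nuclei was compared between genotypes next. Among all retained nuclei it was 12.1% (exact 95% binomial interval 11.3 to 13.0%) and 11.3% (10.8 to 11.9%) for Dnmt1 KO, against 9.83% (9.15 to 10.6%) and 14.2% (13.2 to 15.2%) for control. Intervals cover counting error only. Dnmt1 KO averaged 11.7% ± 0.576 (SD, n = 2) and control 12.02% ± 3.09 (SD, n = 2), and the values of the Dnmt1 KO libraries lay between those of the controls (difference -0.284 percentage points, exact two-sided permutation p = 1.00, where 0.333 is the smallest p that 2 against 2 libraries allow). The difference changed sign with the depth filter. When the range of 1500 to 60000 was applied to mapped reads instead of transcripts, the difference was 2.65 points and the genotypes did not overlap, and in nuclei thinned to 10000 transcripts it was 0.678 points, also without overlap. The filter on reads lowered the share of control replicate 2, which had 2.49 reads per transcript against 1.65 to 1.66 elsewhere, from 14.2% to 7.11%. Thinning to 10000 left out 1850, 4074, 2420 and 500 of the retained nuclei as too shallow. In nuclei thinned to 5000 transcripts it was -1.34 points, with overlap.

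Among postmitotic excitatory nuclei (at least 3 transcripts of *Neurod2* and *Neurod6* together, with the same exclusions except that on *Nxph4*, or membership of the set), the share was 34.5% and 37.5% for Dnmt1 KO against 31.1% and 28.0% for control. The means of 36.03% ± 2.11 (SD, n = 2) and 29.6% ± 2.24 (SD, n = 2) differed by 6.48 points without overlap (exact two-sided permutation p = 0.333, the smallest the design allows). The genotypes overlapped without the exclusion criteria (3.89 points) and in nuclei thinned to 5000 transcripts (5.69 points). They did not overlap with a looser gate (5.91 points) or a stricter gate (5.30 points). Nor did they with doublets removed (6.61 points), with the filter on reads (7.42 points) or in nuclei thinned to 10000 transcripts (8.95 points). Many members had few transcripts of the 2 genes that set the denominator. Of the *Tle4*+/*Hs3st4*+ nuclei, 33.7%, 43.5%, 29.1% and 12.2% did not reach 3 transcripts of *Neurod2* and *Neurod6*, with the lowest share in the deeply sequenced control replicate 2. When only nuclei that reached it were counted, a choice made after seeing the data, the shares were 25.9% and 25.3% against 24.3% and 25.4%. Here the genotypes overlapped and their means differed by 0.778 points (exact two-sided permutation p = 0.667). With at least 5 transcripts of *Foxp2* as a further criterion, also chosen after seeing the data, the shares were 19.1% and 27.1% against 23.9% and 23.6%. A difference in the number of *Tle4*+/*Hs3st4*+ nuclei between genotypes that would hold under both denominators was not detectable with these libraries.

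**Figure D3:**
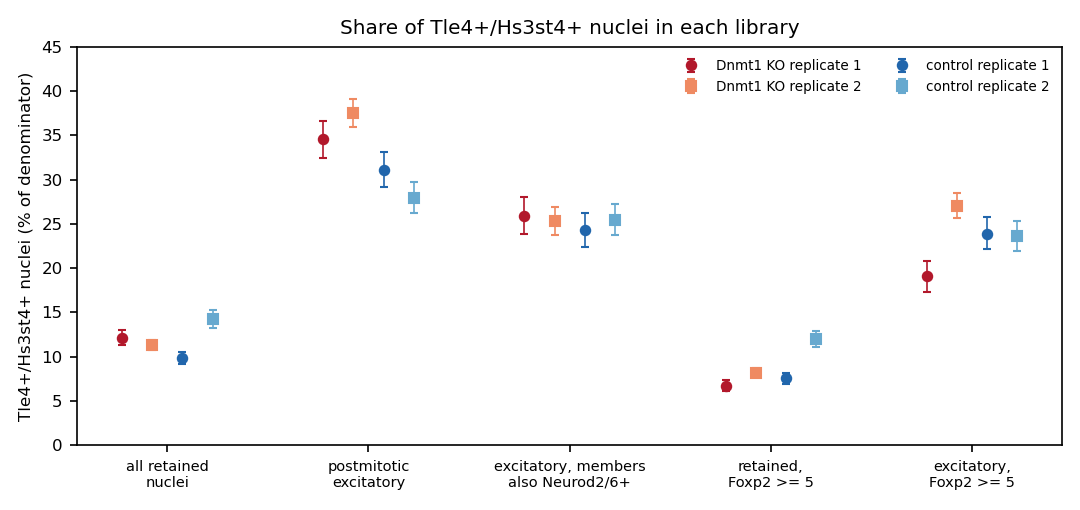
*Tle4*+/*Hs3st4*+ nuclei in percent of 2 denominators (all retained nuclei and postmitotic excitatory nuclei) and under changed definitions, for each library; bars are exact 95% binomial intervals. The Dnmt1 KO libraries lie above the controls for the postmitotic excitatory denominator (34.5% and 37.5% against 31.1% and 28.0%) and overlap with them once *Neurod2* and *Neurod6* are required of the members as well.

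Expression was compared between genotypes on counts summed per library, because nuclei of a brain are not replicates. With edgeR's quasi-likelihood test, 0 of 15109 genes (0.0%) passed a Benjamini-Hochberg adjusted p of 0.05, and the smallest adjusted p was 0.206. At an unadjusted p under 0.05 there were 1038 genes (6.87%), 487 higher (3.22%) and 551 lower (3.65%) in Dnmt1 KO. For 39.5% of the genes both libraries of a genotype lay above both of the other. DESeq2 called 62 genes (0.41%), 47 higher (0.311%) and 15 lower (0.0993%). No gene below is therefore called as changed by the edgeR test; the genes named are those with the smallest unadjusted p among genes of at least 20 CPM whose libraries did not overlap.

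*Dnmt1* itself was at 41.9 and 37.6 CPM for Dnmt1 KO against 41.7 and 43.2 CPM for control (log2 difference -0.08 ± 0.112, SE; edgeR adjusted p = 0.872). The genotypes overlapped, in cells that are not targeted by *Sst-Cre*.

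The 10 genes named as higher in Dnmt1 KO were *Nell1*, *Kctd16*, *Nrp2*, *Eps8*, *Slit3*, *Rmst*, *Slc24a3*, *Stxbp6*, *Rit2* and *Stxbp5l*. *Nell1* (chromosome 7, 49624603 to 50516670, plus strand), which encodes a secreted glycoprotein, was at 41.6 and 48.9 CPM for Dnmt1 KO against 15.03 and 14.2 CPM for control (log2 difference 1.64 ± 0.128, SE; edgeR adjusted p = 0.206, and 5.61e-20 to 0.888 over the alternatives). The Dnmt1 KO libraries lay close together and above both controls. *Nrp2*, a neuropilin receptor for semaphorins, was at 139 and 159 CPM against 67.3 and 52.7 CPM (log2 difference 1.33 ± 0.152, SE). *Slit3*, a repulsive guidance ligand for ROBO receptors, was at 876 and 723 CPM against 381 and 375 CPM (1.09 ± 0.139, SE). The log2 differences of the other 7 lay between 0.80 for *Stxbp5l*, a tomosyn gene, and 1.71 for the non-coding *Rmst*. DESeq2 called 10 of the 10 at an adjusted p of 0.05.

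The highest level of these genes was found in cluster 10 for 6 of the 10 and in cluster 4 for 2, and these clusters took a larger share of the nuclei of Dnmt1 KO replicate 1 than of any other library. Dnmt1 KO replicate 2 held 10.8% of its nuclei in cluster 4 and 0.951% in cluster 10, against 8.66% to 11.2% and 0.717% to 0.866% in the controls. Without Dnmt1 KO replicate 1 the log2 differences of the 10 genes were 0.65 to 1.75. Their sign was largely fixed by the choice of genes without overlap, and leaving out cluster 4 was not tested. Of the higher genes measurable within clusters 1, 2 and 4, 0 of 2, 1 of 3 and 6 of 9 were higher without overlap, where 17.3%, 18.0% and 21.9% of all genes were. Within cluster 4, *Nrp2* was at 310 and 548 CPM for Dnmt1 KO against 334 and 220 CPM for control, and the genotypes overlapped. In clusters 1 and 2 it was at 1.79 to 5.02 CPM in every library. *Slit3* within cluster 4 was at 2459 and 2960 CPM for Dnmt1 KO against 2279 and 1977 CPM for control, still without overlap but closer than over the whole set. Without clusters 10 and 11 the log2 differences of *Nell1*, *Nrp2* and *Slit3* were 1.52, 1.16 and 1.06, and with the added *Foxp2* criterion 1.71, 0.58 and 0.92. Of the 10 genes, 8 were also higher without overlap in the other postmitotic excitatory nuclei, where 2241 of 15109 genes were. The exceptions were *Nell1* and *Rit2*. In those nuclei *Nell1* was at 17.3 and 69.7 CPM for Dnmt1 KO against 45.7 and 5.57 CPM for control. *Rit2* was at 14.6 and 29.9 CPM against 18.2 and 11.2 CPM there.

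The 10 genes named as lower were *Marcks*, *Marcksl1*, *Tubb5*, *Cmss1*, *Sox4*, *Enc1*, *Nrip1*, *Zbtb18*, *Fam107b* and *Zfp846*. *Marcks* (chromosome 10, 37009239 to 37014942, minus strand), which encodes an actin-binding substrate of protein kinase C in growth cones, was at 42.9 and 47.7 CPM for Dnmt1 KO against 76.0 and 88.2 CPM for control (log2 difference -0.85 ± 0.119, SE; edgeR adjusted p = 0.667, and 3.34e-06 to 1.00 over the alternatives). Its relative *Marcksl1* was at 13.7 and 14.9 CPM against 25.5 and 31.2 CPM (-0.97 ± 0.141, SE). *Sox4*, a transcription factor gene of newborn neurons, was at 100.0 and 106 CPM against 150 and 172 CPM (-0.63 ± 0.109, SE). *Tubb5*, a tubulin gene, *Enc1*, which encodes an actin-binding protein, and *Zbtb18*, a transcriptional repressor gene, had log2 differences of -0.60, -0.88 and -0.56. DESeq2 called 5 of the 10.

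Of the lower genes, *Marcksl1*, *Tubb5*, *Cmss1*, *Sox4*, *Enc1*, *Nrip1* and *Zfp846* were highest in cluster 5. *Marcks*, *Zbtb18* and *Fam107b* were highest in clusters 2, 6 and 7. Cluster 5 held 1.17% of the nuclei of Dnmt1 KO replicate 1 and 10.2% to 19.7% of those of the other libraries. Most of the lower genes were also lower within single sub-clusters. In clusters 1, 2 and 4, which held at least 60 nuclei of every library, 9 of 10, 8 of 9 and 7 of 8 of those measurable were lower in Dnmt1 KO without overlap, where 17.6%, 16.8% and 13.3% of all genes were. For *Marcks* the levels in cluster 1 were 47.1 and 41.9 CPM for Dnmt1 KO against 87.3 and 99.5 CPM for control, and in cluster 2 they were 35.2 and 53.9 against 70.8 and 102 CPM. The genes were chosen on the same nuclei, so this is not an independent test. All 10 were also lower without overlap in the other postmitotic excitatory nuclei, where 3421 of 15109 genes were. Their direction held in 18 of 18 settings. These include settings with single libraries left out, where the choice of genes without overlap largely fixed the direction.

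**Figure D4:**
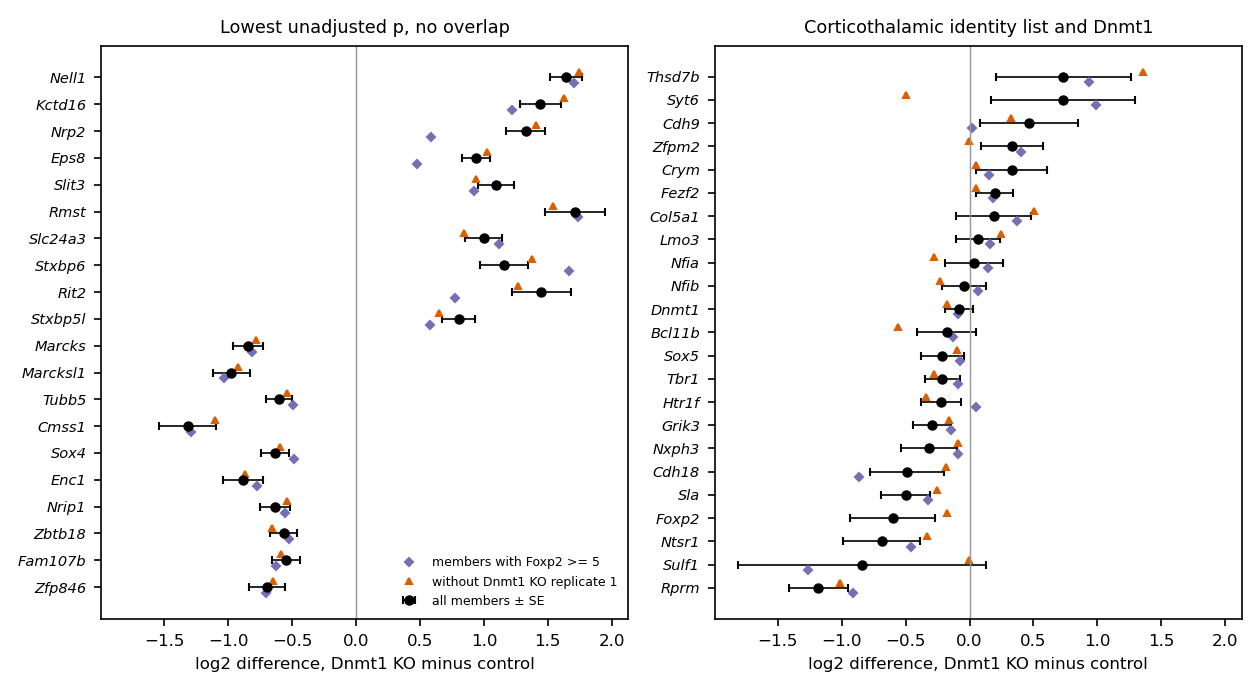
Log2 difference between Dnmt1 KO and control libraries in *Tle4*+/*Hs3st4*+ nuclei with its standard error (edgeR, 2 libraries per genotype), for the 20 named genes on the left and for corticothalamic identity genes and *Dnmt1* on the right. Diamonds and triangles give the estimate with the *Foxp2* criterion and without Dnmt1 KO replicate 1. All 20 genes on the left keep their side of 0, which the choice of genes without overlap largely fixed for the triangles. *Syt6* moves from 0.73 to -0.50 without Dnmt1 KO replicate 1.

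Signs of RNA quality moved with genotype in the same nuclei. Mitochondrial transcripts made up 0.00772% and 0.0116% of all transcripts for Dnmt1 KO against 0.0248% and 0.0161% for control. The ribosomal RNA gene *Rn18s-rs5* was at 1824 and 2333 CPM against 3160 and 5080 CPM, and *Rpph1*, the RNA of ribonuclease P, at 1.41 and 0.770 CPM against 4.37 and 4.41 CPM. All of them were lower in Dnmt1 KO without overlap. *Cmss1*, the lower gene with the largest difference, was at 208 and 292 CPM against 528 and 731 CPM (log2 difference -1.32 ± 0.225, SE), and the 4 libraries stood in the same order for it as for *Rn18s-rs5*. Ribosomal protein genes had negative log2 differences in 66 of 81 cases, against 7699 of 15109 over all genes, with a median of -0.22, which ranged from -0.35 without Dnmt1 KO replicate 2 to -0.11 without control replicate 2, with -0.13 without Dnmt1 KO replicate 1. Without overlap 39 of the 81 were lower, against 21.8% of all genes. When genes were divided by genomic span into 4 groups of like size, the median log2 difference was -0.12 in the shortest group and 0.07 in the longest. At an unadjusted p under 0.05 (edgeR), 57 of the 3778 genes of the shortest group were higher and 253 lower. In the longest group 296 of 3777 were higher and 70 lower. The gene lists below are set beside all genes, not beside genes of like span. Of the named genes, 6 of the 10 lower ones were in the shortest group and 10 of the 10 higher ones in the longest. The shortest group held 3.71% to 4.15% of the transcripts per library and the longest 76.6% to 77.5%. Named genes had to reach 20 CPM, and the share of each group among genes at that level was not computed. The part of these signs in the differences was not tested.

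Corticothalamic identity genes were examined as a list. Of 22 genes, 0 were higher and 2 lower at an unadjusted p under 0.05, 0 were higher and 7 lower without overlap, and the median log2 difference was -0.20. Over all genes tested, 3.22% were higher and 3.65% lower by p, 17.7% higher and 21.8% lower without overlap, and the median was -0.01. The median of the list was -0.035 without control replicate 1, -0.099 without control replicate 2, and -0.17 and -0.22 without Dnmt1 KO replicates 1 and 2. *Rprm*, which encodes a p53-induced protein and marks layer 6, was at 4.69 and 6.31 CPM for Dnmt1 KO against 10.7 and 14.6 CPM for control (log2 difference -1.18 ± 0.230, SE; edgeR adjusted p = 0.668, and 2.68e-06 to 1.00 over the alternatives, with 0.0439 in DESeq2). *Sla*, an adaptor protein gene, was at 121 and 179 CPM against 226 and 203 CPM (-0.50 ± 0.194, SE), and *Ntsr1* at 52.4 and 94.8 CPM against 98.8 and 140 CPM (-0.69 ± 0.303, SE). In each of them Dnmt1 KO replicate 1 was the lowest library, and without it the log2 differences of *Rprm*, *Sla* and *Ntsr1* were -1.01, -0.25 and -0.33.

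The *Foxp2* levels of 686 and 1435 CPM for Dnmt1 KO against 1660 and 1578 CPM for control did not overlap, but their log2 difference of -0.60 ± 0.333 (SE, edgeR adjusted p = 0.739) fell to -0.17 without Dnmt1 KO replicate 1. Within cluster 1 *Foxp2* was at 638 and 1298 CPM against 1239 and 907 CPM, and within cluster 2 at 2097 and 2607 CPM against 2698 and 2433 CPM. The genotypes overlapped in both. With the *Foxp2* criterion the median of the list was 0.02. *Tbr1* and *Sox5*, with log2 differences of -0.21 ± 0.137 and -0.21 ± 0.165 (SE), were lower without overlap in Dnmt1 KO, and *Htr1f* (-0.22 ± 0.157, SE) overlapped. For *Tbr1* the non-overlap was narrow, at 140.9 and 131.1 CPM for Dnmt1 KO against 176.0 and 142.2 CPM for control. The shares of thinned nuclei with *Tbr1* overlapped, at 44.99% and 49.5% against 58.2% and 48.6%. *Syt6* had a log2 difference of 0.73 ± 0.563 (SE), carried by the 187 CPM of Dnmt1 KO replicate 1, and of -0.50 without that library.

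Upper-layer and callosal genes, low in these nuclei, had mostly negative log2 differences. Of 15 genes, 13 had negative log2 differences, 4 were lower and 1 higher at an unadjusted p under 0.05, 6 were lower and 1 higher without overlap, and the median was -0.43. Of all 15109 genes 7699 were negative, 3.65% were lower and 3.22% higher by p, and 21.8% were lower and 17.7% higher without overlap. The POU-domain genes *Pou3f3* and *Pou3f2* were at 15.5 and 23.8 CPM against 37.8 and 46.3 CPM and at 3.57 and 8.58 CPM against 12.1 and 22.4 CPM (log2 differences -1.08 ± 0.221 and -1.46 ± 0.457, SE). *Cux1* had a log2 difference of -0.45 and *Lhx2* one of 0.49. That of *Lhx2* was 0.069 with the *Foxp2* criterion and 0.23 without clusters 10 and 11. The median of the list was -0.21 without Dnmt1 KO replicate 1 and -1.01 without Dnmt1 KO replicate 2. Cluster 7, which carried 11 of these genes and most doublet calls, held 2.48% of the nuclei of Dnmt1 KO replicate 1 and 6.20% to 11.2% of those of the other libraries. *Pou3f3* and *Pou3f2* were highest in cluster 5, at 77.5 and 39.2 CPM. That cluster held 1.17% of the nuclei of Dnmt1 KO replicate 1 and 10.2% to 19.7% of those of the other libraries.

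A list of receptors for signals of interneurons was examined next, since *Dnmt1* was deleted in those that express *Sst*. The list also held neuroligin and chloride transporter genes. Of 23 listed genes tested, 20 had positive log2 differences. At an unadjusted p under 0.05, 4 were higher and 0 lower (3.22% and 3.65% of all genes). Without overlap, 11 were higher and 1 lower (17.7% and 21.8% of all genes). The median was 0.27. Among the 3777 genes of the longest span group, 296 were higher and 70 lower at that p. The list was not compared with genes of like span. The GABA-A receptor subunit genes *Gabra2*, *Gabra4* and *Gabrg3* were at 233 and 283 CPM against 117 and 158 CPM, at 17.1 and 27.7 CPM against 10.7 and 9.24 CPM, and at 90.2 and 65.0 CPM against 37.3 and 16.9 CPM. Their log2 differences were 0.92 ± 0.178, 1.19 ± 0.247 and 1.54 ± 0.388 (SE). *Gabbr1*, a GABA-B receptor subunit gene, had 0.27 ± 0.0919 (SE). The highest levels of these 4 genes were in clusters 9, 10 and 11, and *Gabra2*, *Gabra4* and *Gabrg3* were also raised in cluster 4, which held 20.3% of the nuclei of Dnmt1 KO replicate 1. The median of the list was 0.27 without clusters 10 and 11, while leaving out cluster 4 was not tested. With the *Foxp2* criterion the median was 0.16 and the log2 difference of *Gabrg3* 0.71.

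Glutamate receptor and transporter genes gave a like count, with 19 of 25 positive, 4 higher and 0 lower at an unadjusted p under 0.05, and 11 higher and 2 lower without overlap. The median of 0.26 was 0.12 without Dnmt1 KO replicate 2, 0.18 without clusters 10 and 11, and 0.11 with the *Foxp2* criterion. The shares of all genes were 3.22% and 3.65% by p and 17.7% and 21.8% without overlap. Neither this list nor that of axon guidance below was compared with genes of like span. *Gria4* and *Gria1*, AMPA receptor subunits, were at 408 and 419 CPM against 303 and 288 CPM and at 939 and 650.5 CPM against 575 and 402 CPM (log2 differences 0.50 ± 0.102 and 0.71 ± 0.252, SE). *Grik4*, a kainate receptor subunit gene, had a log2 difference of 0.93 ± 0.222 (SE), which was 0.32 without clusters 10 and 11 and 0.096 with the *Foxp2* criterion. Without Dnmt1 KO replicate 1 the log2 differences of *Gria1* and *Grik4* were 0.41 and 0.58. Among 32 axon guidance and adhesion genes, 6 were higher and 0 lower at an unadjusted p under 0.05, to be read beside the same shares of all genes. Their median was 0.09, and 0.20 and 0.014 without Dnmt1 KO replicates 1 and 2. With the *Foxp2* criterion it was 0.0032. Beside *Nrp2* and *Slit3* the higher genes included the ephrin receptor gene *Epha6* (449 and 308 CPM against 181 and 130 CPM, log2 difference 1.30 ± 0.247, SE) and *Plxnd1*, a semaphorin receptor gene (0.74 ± 0.164, SE). *Epha6* was highest in clusters 10 and 4, at 1213 and 1184 CPM, and its log2 difference was 0.79 with the *Foxp2* criterion.

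Markers of other cells that the gate could let through were compared as well. The summed level of the hippocampal list was 1122 and 733 CPM for Dnmt1 KO against 386 and 533 CPM for control, with 2 of 7 tested genes higher at an unadjusted p under 0.05 and a median of 0.48. This median was 0.0048 and 1.15 without Dnmt1 KO replicates 1 and 2, and 0.86 and 0.77 without control replicates 1 and 2. The Cajal-Retzius list was at 725 and 508 CPM against 395 and 575 CPM, with 2 of 10 higher and a median of 0.46, which was 0.11 without Dnmt1 KO replicate 1, 0.22 without control replicate 1 and 0.043 after thinning to 5000 transcripts. Of the hippocampal genes 5 had positive and 2 negative log2 differences, and 3 were higher without overlap. Of all genes 3.22% were higher by p and 17.7% without overlap. *Zbtb20* alone made up 880 and 611 CPM against 282 and 424 CPM of the summed level. Without clusters 10 and 11, edgeR gave 0 calls at an adjusted p of 0.05, and the medians of these lists were 0.65 and 0.64 over the genes still tested.

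Whether a genotype difference was particular to *Tle4*+/*Hs3st4*+ nuclei was tested as the interaction of genotype with population, against the 6902 other postmitotic excitatory nuclei of the same libraries. Of 16657 genes 0 (0.0%) passed an adjusted p of 0.05 with edgeR, 454 (2.73%; 1.6% with a positive and 1.12% with a negative interaction) were under an unadjusted p of 0.05, and DESeq2 called 3 (0.018%). By the edgeR test of all 4 libraries, no difference could therefore be called particular to these nuclei. Among genes of at least 20 CPM without overlap, those with the smallest unadjusted p were *Tcerg1l*, whose log2 interaction was -1.54, and *Tle1*, a relative of *Tle4*, with 0.66. *Tle1* was at 35.2 and 37.9 CPM for Dnmt1 KO against 25.5 and 22.8 CPM for control. *Zfpm2* had an interaction of -0.65 but was not lower in the set. It was there at 3447 and 2297 CPM for Dnmt1 KO against 2555 and 2056 CPM for control. In the other excitatory nuclei it was higher in Dnmt1 KO, at 968 and 560 CPM against 393 and 364 CPM. *Cntnap5b*, among the genes most enriched in the set, had an interaction of -0.44. *Ntng2*, *Pard3b* and *Lhx2* had 0.63, 0.68 and 0.52, and *Cnih3* and *Dlc1* had -0.47 and -0.43. *Arhgap6* also entered by the rule, at 150 CPM in control replicate 1 and 1.13 to 5.58 CPM in the other libraries. In the other excitatory nuclei of control replicate 1 it was at 201 CPM, so it marked that library and not a population. All 10 had an edgeR adjusted p of 1.00.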

How the data were processed

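Counts of unique transcripts per barcode and gene (unfiltered, not normalized) were deposited by the authors, who processed split-pool barcoded nuclei (Parse Evercode) with Trailmaker against GRCm39. How intronic and antisense reads were counted is not given in the sources used here, so overlapping genes may share reads. Control replicate 2 (batch 2) had 2 sublibraries and the others 8 each.

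Barcodes with 1500 to 60000 transcripts were retained. Total transcripts summed over the set were 13444590 and 25986982 for Dnmt1 KO against 13510245 and 21313419 for control, and the median number of genes per nucleus was 3757 to 4805. Doublets were called with scrublet (expected rate 5%) and kept. They amounted to 2.19%, 6.58%, 3.32% and 8.61% of the set, and leaving them out was an alternative. Sub-clusters were obtained in scanpy 1.11.5 (Leiden, resolution 0.5) without *Xist* and Y-linked genes. Libraries were pooled for them without integration, and only the choice of variable genes took the library into account. Sums per library were tested with edgeR 4.0.16 in R 4.3.3 (TMM, filterByExpr, design with genotype alone), leaving out the 8 genes of the gate, and, as an alternative, with DESeq2 1.42.0. Standard errors are the absolute log2 difference divided by the square root of F. On simulated counts with known changes, the edgeR test of genotype recovered 8%, 30%, 70% and 82% of genes changed 1.5-, 2-, 3- and 4-fold among 14800 genes.

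The members and gene lists were chosen with earlier results of these data known. Named against all other nuclei were the 20 genes highest and the 10 lowest by the library ratio nearest 0. By genotype, 10 genes in each direction (5 for the interaction) were named by unadjusted p among genes of at least 20 CPM without overlap, then the identity list and up to 4 genes of each other list. Gene models without a symbol were not named. Coordinates come from GENCODE vM39, which matched 56323 of 56884 genes. Results on 1 gene and on a comparison population that it defined are not reported here.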

Additional observations from a re-analysis of the deposited data

How the results depend on the processing

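The 2 libraries per genotype limit every comparison, and the depth of control replicate 2 cannot be separated from batch. Among retained nuclei the share difference was -2.47 to 1.90 points with single libraries left out, 2.65 with the filter on reads and 0.678 after thinning to 10000 transcripts. Among excitatory nuclei it was 4.90 to 8.06 with single libraries left out and -0.684 with the *Foxp2* criterion, which was chosen after seeing the data. It was 3.89 without the exclusion criteria and 5.69 after thinning to 5000 transcripts, with overlap in both. Without overlap, it was 5.30 with the stricter gate, 5.91 with the looser gate and 6.61 with doublets removed. It was 7.42 with the filter on reads and 8.95 after thinning to 10000 transcripts, also without overlap. With the replicate number as a block the differences were -0.284 and 6.48 points, which the balanced design makes equal to those without it, and 0 genes were called. Deviations of libraries with the same number were not correlated over all genes (correlation 0.00919 over 15109 genes), although the number coincided with the presence of *Xist*. The count of genes called by genotype was 0 in the test reported and 1 to 31 with single libraries left out (31 without Dnmt1 KO replicate 2), 1 with the looser gate, 1 with batch as a covariate, 62 with DESeq2 and 589 with no filter on low counts, 550 of them among the genes tested. For the interaction these counts were 0 to 66 (66 without Dnmt1 KO replicate 2), 1 without the exclusion criteria, 3 with DESeq2 and 3 with no filter. The causes were not tested.

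With single libraries left out, log2 differences by genotype ranged from -0.50 to 1.39 for *Syt6*, -0.0036 to 0.60 for *Zfpm2*, -0.56 to 0.12 for *Bcl11b*, -0.28 to 0.29 for *Nfia*, -0.23 to 0.12 for *Nfib*, -0.41 to 1.36 for *Thsd7b*, -0.024 to 1.20 for *Cdh9*, -0.14 to 0.24 for *Lmo3*, -0.29 to 0.50 for *Col5a1*, -0.17 to 0.0024 for *Dnmt1*, -0.0076 to 1.00 for *Chst8* and -1.27 to 1.79 for *Nr4a2*. With the *Foxp2* criterion they were 0.051 for *Htr1f*, 0.069 for *Nfib* and -0.21 for *Sema3c*. With batch as a covariate they were -0.079 for *Nfia*, -0.024 for *Cdh9* and -0.073 for *Lmo3*. *Nfia* was at -0.012 with the filter on reads, *Nfib* at 0.026 without the exclusion criteria and *Col5a1* at -0.089 after thinning. The interaction of *Arhgap6* was -1.28 against all other retained nuclei. The median log2 ratio of the identity list to all other nuclei was 1.69 after thinning, and the mean share of nuclei with *Bcl11b* was 86.0% in thinned nuclei and 96.6% without thinning.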

Other observations

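Further gene groups were measured in *Tle4*+/*Hs3st4*+ nuclei by genotype. Of 14 genes of the DNA methylation machinery, 0 were higher and 1 lower at an unadjusted edgeR p under 0.05, and the median log2 difference was -0.08. Over all genes, 3.22% were higher and 3.65% lower at this p, which the counts below are to be read against. The lower gene was *Mbd3*, at 5.58 and 5.66 CPM for Dnmt1 KO against 7.77 and 9.20 CPM for control (-0.59 ± 0.175, SE). *Dnmt3a*, a de novo methyltransferase gene, was at 35.6 and 44.6 CPM against 34.3 and 33.5 CPM (0.25 ± 0.135, SE). Relative to all other retained nuclei, 8 of 9 methylation genes were lower in 4 of 4 libraries, as were 68.8% of all genes, and *Dnmt1* had a log2 ratio of -0.47.

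Of 20 neuronal maturation genes, 2 were higher and 0 lower (median 0.10). They were *Camk4*, at 205 and 229 CPM against 173 and 137 CPM, and the vesicular glutamate transporter gene *Slc17a7*, at 20.6 and 19.1 CPM against 16.7 and 15.5 CPM. Of 13 genes of migrating newborn neurons, 2 were higher and 1 lower (median -0.03), and the higher ones, *Neurod1* and *Sema3c*, had log2 differences of 0.89 and 0.90 that were 0.22 and 0.41 without clusters 10 and 11. Of 5 immediate early and stress genes tested, 0 were higher and 3 lower (median -0.47), among them *Hspa8*, a heat shock protein gene, at 21.0 and 19.9 CPM against 25.3 and 31.6 CPM. Of 12 layer 5 genes, 1 was higher and 0 lower (median 0.06), and of 7 subplate genes 0 were higher and 0 lower (median 0.08). With single libraries left out these medians ranged from -0.16 to 0.28 and from -0.40 to 0.53. *Nr4a2*, a nuclear receptor gene of subplate and deep layer 6 neurons, was at 8.85 and 67.9 CPM for Dnmt1 KO against 32.7 and 11.3 CPM for control, so its spread within a genotype exceeded the difference between genotypes. The 2 libraries with the higher level, Dnmt1 KO replicate 2 and control replicate 1, were those with most nuclei in cluster 3, where *Nr4a2* was highest. None of these genes passed an edgeR adjusted p of 0.05.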
